A study of Mus musculus with 6 samples.

Results

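The 35 genes described here mark the cells that surround and support the capillaries of the kidney rather than the podocytes themselves, and they were read in 6 RNA-seq libraries labelled as mouse podocytes. They were chosen by name as markers, by a rule that used no values but with earlier results of these data known: 9 genes of mesangial cells, 9 contractile genes of smooth muscle, 9 genes of vascular mural cells and pericytes, 2 genes of renin cells and 6 genes of fibroblasts. All 35 were found among the 36889 gene identifiers of the deposited tables, and all 35 passed the filter on low counts, as did 19742 genes in all.

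Libraries labelled CD2BP2 Knockout (KO, n = 3) were compared with libraries labelled Wildtype (WT, n = 3), both from mice of C57BL/6 background and both made from polyadenylated RNA. CD2BP2 binds proline-rich partners through its GYF domain and belongs to the U5 particle of the spliceosome. The allele carries its downstream loxP site behind exon 3, while the sources used here do not give the Cre driver used for podocytes, the age of their donors or how the cells were obtained. The labels' treatment text speaks of bone marrow macrophages from poly (I:C)-treated MxCre mice, although the source is given as podocytes. Whether each library had an animal of its own is not labelled, and the p-values below therefore rest on a spread between libraries that may be technical.

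The total count over all exonic parts, the stretches of exon between annotated exon edges, ranged from 186022084 to 255554573 per library. Levels are given as CPM, the share of a gene in all counts of a library on a common scale, corrected with edgeR's TMM factors. Cd2bp2 itself averaged 61.2 CPM (SD 0.564) in WT and 48.9 CPM (SD 1.93) in KO, with n = 3 in each group, and passed edgeR's test (adjusted p = 0.0297, log2 fold change -0.32, SE 0.05). Its count summed over all exonic parts was thus reduced and not lost. Whether single exons were lost, or the transcript within a cell type, was not tested. Podocyte genes led the libraries, with Podxl at 10192 ± 716 CPM and Nphs1 at 2902 ± 121 CPM in WT, and endothelial genes were also abundant (Kdr, 1791 ± 56.9 CPM; SD, n = 3). Over all genes, KO2 was the highest library most often, for 22.9% of genes, and WT3 for 17.2%, against 13.2% to 16.3% for each of the others. KO2 was more than 1.5 times each other library for 3.23% of genes, WT3 for 1.48%, KO1 for 1.45% and the rest for 0.395% to 0.866%. KO2 was also the highest for the summed markers of the distal nephron, from Henle's loop to the collecting duct (1538 CPM against 212 to 583 CPM in the other 5 libraries). In bulk RNA, fewer cells of a type and less RNA per cell cannot be told apart.

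Mesangial cells hold the capillary loops of the glomerulus together, contract, and respond to platelet-derived growth factor through its beta receptor. They share a contractile programme with arteriolar smooth muscle and with the renin cells of the juxtaglomerular apparatus, which release renin and can revert to a smooth muscle state. Contractile genes of this kind are bound by serum response factor at a motif called the CArG box, and fibroblasts of the interstitium add the matrix proteins of scar and repair.

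Promoters were found in RefSeq (build GRCm38.p6) for 26 of the 35 genes, and the 170 bases before the annotated start are shown for 4 of them: Acta2 and Myl9 of the contractile set, Ren1 of the renin set, and Postn, the only one of the 35 that passed the test below. Capitals mark CArG boxes, counted here with at most 1 C or G among the 6 central bases, and, in Ren1 and Postn, the TATAAA motif. All are printed 5′ to 3′ along the gene.
Acta2, chr19:34255374-34255543, minus strand: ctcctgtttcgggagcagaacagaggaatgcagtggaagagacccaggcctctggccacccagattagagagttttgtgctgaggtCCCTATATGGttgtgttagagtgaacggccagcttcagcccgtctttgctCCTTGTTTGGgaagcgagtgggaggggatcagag
Myl9, chr2:156775294-156775463, plus strand: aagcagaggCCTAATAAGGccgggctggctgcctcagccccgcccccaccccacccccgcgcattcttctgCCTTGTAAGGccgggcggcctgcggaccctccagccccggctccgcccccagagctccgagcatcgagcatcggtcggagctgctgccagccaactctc
Ren1, chr1:133350504-133350673, plus strand: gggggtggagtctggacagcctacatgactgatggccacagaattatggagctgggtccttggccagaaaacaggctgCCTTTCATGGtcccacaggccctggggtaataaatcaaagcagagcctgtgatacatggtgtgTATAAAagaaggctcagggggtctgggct
Postn, chr3:54360937-54361106, plus strand: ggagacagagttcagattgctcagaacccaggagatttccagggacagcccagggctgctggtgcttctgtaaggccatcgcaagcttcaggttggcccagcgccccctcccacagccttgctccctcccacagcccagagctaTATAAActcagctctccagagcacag

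In the 250 bases before the start, a CArG box with no C or G in its centre was found for Fhl2 and Myl9, 2 of the 26 genes, against 1.47% of 32851 mouse promoters. With 1 such base allowed, Acta2, Ren1 and Tbx18 were added, against 8.59% of all promoters. The TATAAA motif was found for 5 of the 26 genes (12.4% of all promoters), the RBPJ motif GTGGGAA for Tbx18 alone (5.42%) and the cAMP response element TGACGTCA for Mcam alone (1.55%). All were searched on both strands, and none overlapped another in the promoters shown. A gene was counted if any of its promoters had a match (31 promoters for the 26 genes). The percentages are of single promoters, so the 2 shares are not strictly alike. Windows this short leave out the first intron and distal elements, and a match is only a match of letters.

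Of the 35 genes, 1 fell and 0 rose in KO by the quasi-likelihood test of edgeR, with p-values adjusted over all genes after Benjamini and Hochberg. The gene that fell was Postn. Over all 19742 genes tested, 3.37% passed in either direction, 1.76% as lower and 1.62% as higher in KO, so 1 of 35 was close to the background. At an unadjusted p under 0.05 there were 6 of the 35 (22.6% of all genes), and DESeq2 called 6 of them (14.0% of all genes). The median log2 fold change was -0.04 over the 35 genes and 0.01 over all genes. WT and KO libraries did not overlap for 6 of the 35 genes (28.9% of all genes), 4 lower and 2 higher in KO, against 14.8% lower and 14.1% higher among all genes.

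**Figure D1:**
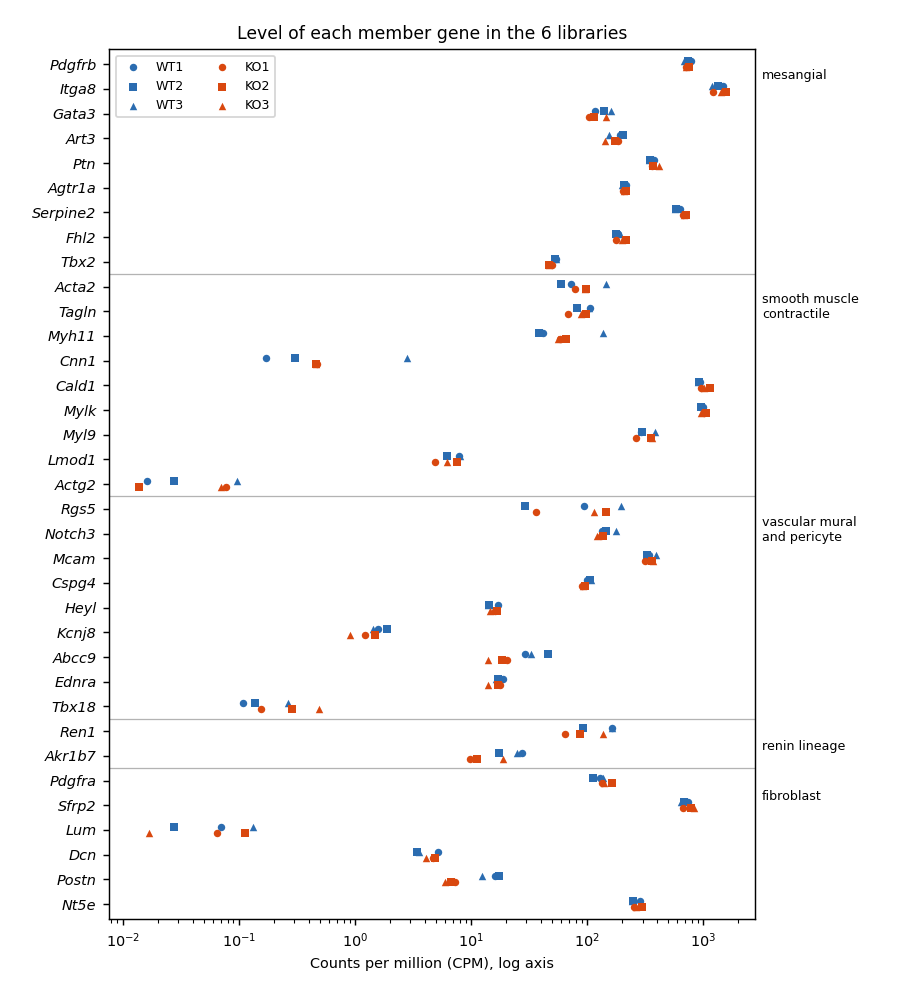
Level of each of the 35 genes in CPM (log axis) in the 3 WT libraries (blue) and the 3 KO libraries (orange), with symbols for replicates 1 to 3 and lines between the groups of genes. Mesangial genes lie close together in all 6 libraries, while WT3 stands to the right for Acta2, Myh11, Cnn1 and Rgs5.

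The mesangial genes were abundant in these podocyte-labelled libraries, and 0 of the 9 passed edgeR's test (2 at an unadjusted p under 0.05, and the same number with DESeq2). Per kilobase of annotated exon, WT levels were 184 ± 20.8 CPM for Itga8, the integrin subunit that marks mesangial cells, 155 ± 8.18 CPM for Serpine2, a secreted protease inhibitor, and 134 ± 8.32 CPM for Pdgfrb, the receptor through which mesangial cells are recruited (SD, n = 3). Tbx2, a T-box transcription factor, was the lowest of the set at 14.8 ± 0.25 CPM per kilobase. The 9 genes summed to 3793 ± 250.5 CPM in WT and 3940 ± 259 CPM in KO (SD, n = 3 each), so the sums of the groups differed by less than their spread. Their median log2 fold change was 0.01.

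Pdgfrb stood at 777, 738 and 686 CPM in WT1, WT2 and WT3 and at 707, 756 and 713 CPM in KO1, KO2 and KO3. All KO values lay inside the WT range, and the log2 fold change was -0.02 (SE 0.06, edgeR adjusted p = 0.904). Itga8 ranged from 1190 to 1492 CPM in WT and from 1207 to 1568 CPM in KO, also with overlapping groups (log2 fold change 0.06, SE 0.12). Agtr1a, the angiotensin II receptor by which mesangial cells contract, varied least of the 9 in relation to its level, from 198 to 218 CPM over all 6 libraries (log2 fold change 0.01, SE 0.06).

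Serpine2 was the mesangial gene with the smallest p. It stood at 629, 584 and 569 CPM in WT and at 670, 708 and 686 CPM in KO, so every KO library lay above every WT library. The log2 fold change was 0.21 (SE 0.06), and it did not pass (edgeR adjusted p = 0.103). Tbx2 went the other way with an equally small spread, at 53.6, 52.6 and 54.4 CPM in WT and 49.4, 46.7 and 47.0 CPM in KO (log2 fold change -0.17, SE 0.05, edgeR adjusted p = 0.104). Both were called by DESeq2, with adjusted p-values of 0.00915 and 0.0105.

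The remaining mesangial genes had overlapping groups and log2 fold changes between -0.19 and 0.10. Ptn, a heparin-binding growth factor, stood at 356 ± 21.6 CPM in WT and 383 ± 31.2 CPM in KO. Fhl2, a LIM domain cofactor of contractile gene transcription, stood at 185 ± 7.03 and 197 ± 19.7 CPM (SD, n = 3 each). Gata3, the transcription factor of the mesangial lineage, was counted together with an antisense partner, 9230102O04Rik, under 1 identifier. The 8 of its 24 exonic parts held only by Gata3 transcripts gave 38.1 ± 5.5 CPM in WT and 32.7 ± 4.61 CPM in KO, again with overlapping groups.

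**Figure D2:**
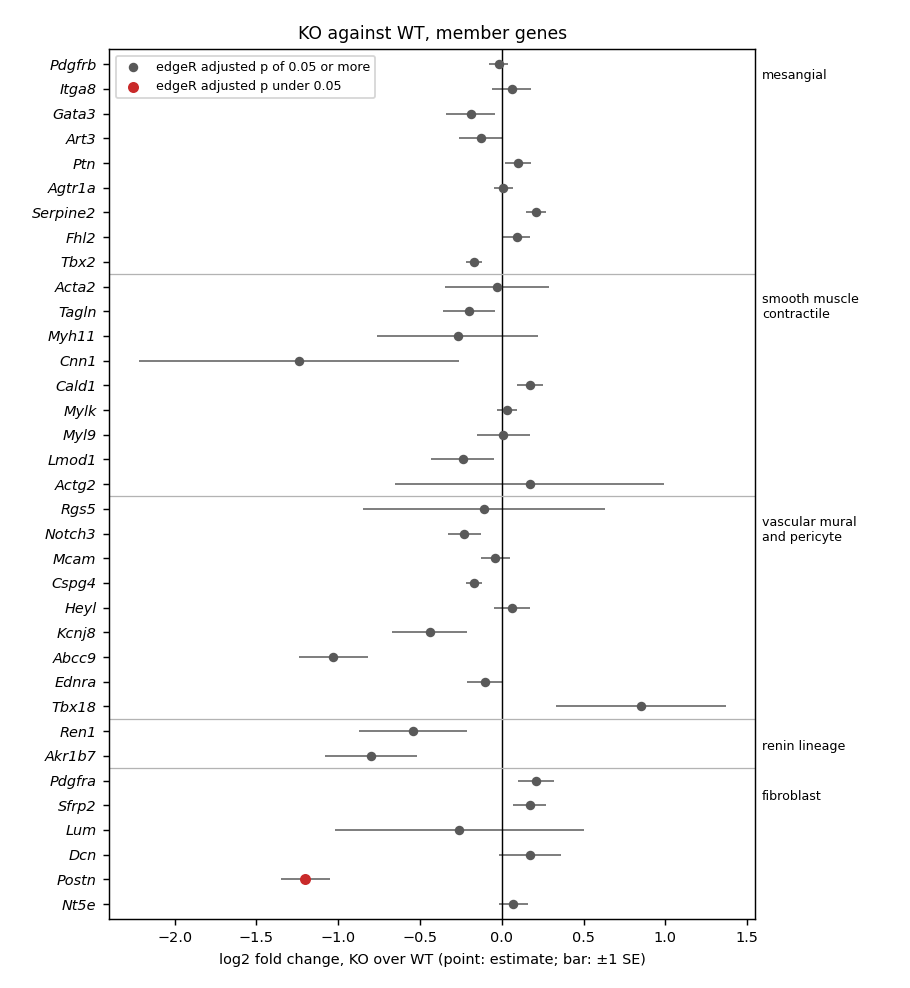
Log2 fold change of KO over WT for each of the 35 genes (edgeR; bars, 1 standard error). Postn, in red, is the only gene with an adjusted p under 0.05, and Cnn1, Actg2, Lum and Rgs5 have the widest bars.

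The contractile genes differed in how much they varied between libraries. Of the 9, 0 passed the test (edgeR adjusted p from 0.261 to 0.979, with 0 by DESeq2 and 0 at an unadjusted p under 0.05). Cald1, Mylk and Myl9, whose products regulate actomyosin and are made by mesangial cells and podocytes as well as by smooth muscle, were the abundant ones, at 120 ± 2.65, 92.4 ± 1.49 and 279 ± 44.4 CPM per kilobase in WT (SD, n = 3). Cald1 stood at 941, 924 and 900.0 CPM in WT and at 949, 1139 and 1012 CPM in KO, so the groups did not overlap. Its log2 fold change was 0.17 (SE 0.08, edgeR adjusted p = 0.261). Mylk, the myosin light chain kinase, lay between 953 and 1055 CPM in all 6 libraries.

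Acta2, Myh11 and Cnn1 were highest in 1 library, WT3, while the groups overlapped. Acta2, smooth muscle actin, stood at 73.1, 59.6 and 145 CPM in WT and at 78.1, 98.1 and 95.4 CPM in KO. Myh11, the smooth muscle myosin heavy chain, stood at 41.6, 38.2 and 137 CPM in WT and at 58.9, 65.9 and 55.7 CPM in KO. In both, WT3 was above each other library and WT1 and WT2 were below all 3 KO libraries. Cnn1, calponin, was scarce everywhere except WT3, which had 638 of its counts (2.80 CPM) against 32 to 123 counts in the other libraries (0.172 to 0.474 CPM).

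WT3 was the highest of the 6 libraries for 6 of the 9 contractile genes (17.2% of all genes) and more than 1.5 times each other library for 2 of them, Myh11 and Cnn1. Acta2, Myh11 and Cnn1 changed sign when WT3 was left out: the log2 fold change of Acta2 went from -0.03 to 0.45, that of Myh11 from -0.27 to 0.59 and that of Cnn1 from -1.24 to 0.96 (edgeR adjusted p = 0.144, 0.0534 and 0.159 without WT3). None of the 3 passed with or without it. Myl9 was also highest in WT3 (384 CPM against 263 to 362 CPM), and its change was near 0 (log2 fold change 0.01, SE 0.16). The 6 genes also include Lmod1, for which WT1 and WT3 were nearly level at 7.93 and 7.97 CPM. They include Actg2 as well, on 22 counts in WT3 (0.0966 CPM) against 20 in KO1 (0.0771 CPM). Tagln, which encodes SM22, was nearly level in WT1 and WT3, at 106 and 104 CPM. Cald1 and Mylk were highest in KO2.

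Among 27 other fibroblast and matrix genes, WT3 was the highest library for 9 and more than 1.5 times each other library for 4. Others were lowest in WT3, among them Efemp1, a fibulin (34.4 CPM against at least 53.9 CPM elsewhere), and Bgn, the proteoglycan biglycan (622 against 640.0 to 753 CPM). Of those high in WT3, Eln, the precursor of elastin, stood at 215 CPM in WT3 against 53.6 to 92.6 CPM in the other libraries, Fbln5 at 119 against 41.4 to 56.5 CPM and Fbln2 at 87.4 against 16.1 to 31.9 CPM. Jag1, a Notch ligand of the arterial wall, stood at 110 CPM in WT3 against 47.1 to 54.3 CPM. These genes were chosen for display after their values were seen. The tubule gene Kap was high in WT3 too (394 CPM), next to 329 CPM in KO2. What these levels in WT3 go back to was not tested.

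**Figure D3:**
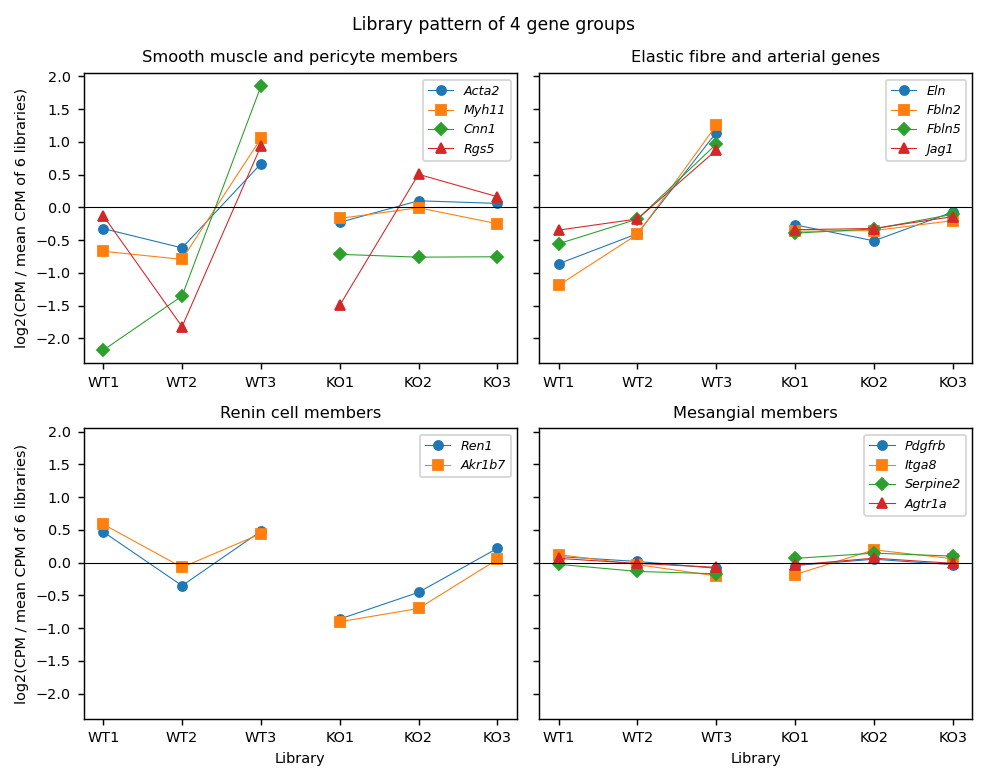
Log2 of CPM over the mean CPM of the 6 libraries, for 4 smooth muscle and pericyte genes, 4 elastic fibre and arterial genes, the 2 renin cell genes and 4 mesangial genes; lines join the libraries of a group only to guide the eye. The upper panels peak in WT3 and the renin genes share another order of libraries. The mesangial genes vary less, with Serpine2 higher in every KO library than in every WT library.

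Lmod1 and Actg2 complete the contractile set. Lmod1, leiomodin, was low at 7.36 ± 1.02 CPM in WT and 6.26 ± 1.37 CPM in KO (SD, n = 3 each). Actg2, enteric smooth muscle actin, had 3, 5 and 22 counts in WT and 20, 3 and 17 counts in KO, with 10.7% to 57.2% of its exonic bases covered. At that depth a difference was not detectable, and because actin genes share long stretches of sequence, the split of reads among Acta2, Actg2 and the other actins is uncertain.

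Among the vascular mural and pericyte genes 0 of 9 passed edgeR's test (2 by DESeq2 and 2 at an unadjusted p under 0.05), and 7 of 9 had a negative log2 fold change (median -0.11). Rgs5, a regulator of G protein signalling that marks pericytes, spread most: 93.5, 28.9 and 195 CPM in WT and 36.2, 145 and 114 CPM in KO. Neither group stood above the other, and its SE was 0.74 on the log2 scale. Leaving out WT3 moved its log2 fold change from -0.11 to 0.68 (edgeR adjusted p = 0.626). Mcam, an adhesion molecule of mural and endothelial cells, was steady at 356 ± 34.1 and 348 ± 30.7 CPM. Notch3, the Notch receptor of arterial smooth muscle, stood at 153 ± 21.3 CPM in WT and 131 ± 7.31 CPM in KO (SD, n = 3 each; edgeR adjusted p = 0.258).

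Cspg4, the NG2 proteoglycan of pericytes, differed little but evenly, at 99.8, 105 and 108 CPM in WT and 89.6, 95.2 and 92.8 CPM in KO. Every KO library lay below every WT library, and the log2 fold change of -0.17 (SE 0.05) did not pass (edgeR adjusted p = 0.114; DESeq2 adjusted p = 0.029).

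Abcc9 and Kcnj8 encode the regulatory and the pore subunit of the ATP-sensitive potassium channel of pericytes and smooth muscle. They are neighbours on chromosome 6, on the same strand and 16505 bases apart in NCBIM37. Abcc9 stood at 29.3, 46.3 and 32.9 CPM in WT and at 20.5, 18.6 and 14.0 CPM in KO. The groups did not overlap, and WT was 2.04 times KO (log2 fold change -1.03, SE 0.21). Its edgeR adjusted p of 0.0545 just missed the threshold. It ranged from 3.81e-05 to 0.164 over the 13 alternatives, passing with DESeq2 and with the highest-count exonic part alone. Kcnj8 was scarcer, at 1.59, 1.90 and 1.43 CPM in WT and 1.23, 1.5 and 0.90 CPM in KO, with overlapping groups (log2 fold change -0.44, SE 0.23, edgeR adjusted p = 0.307).

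Heyl, a Notch target, and Ednra, the endothelin receptor of mural cells, had log2 fold changes of 0.06 and -0.10 with overlapping groups. Tbx18, a T-box factor of mural and ureteral mesenchyme, had 20 to 60 counts per library in WT and 40 to 117 in KO (log2 fold change 0.85, SE 0.52), and did not pass (edgeR adjusted p = 0.382).

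Ren1, which encodes renin, and Akr1b7, an aldo-keto reductase that marks renin cells, varied together. Ren1 stood at 163, 92.4 and 164 CPM in WT and at 64.9, 86.1 and 137 CPM in KO. Akr1b7 stood at 27.3, 17.3 and 24.7 CPM in WT and at 9.73, 11.2 and 18.8 CPM in KO. In both genes WT1 and WT3 were the highest libraries, followed by KO3, WT2, KO2 and KO1, so the groups overlapped by the same libraries, KO3 above WT2.

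Renin was 1.46 times as high in WT as in KO by the means (edgeR adjusted p = 0.375, log2 fold change -0.54, SE 0.33), and Akr1b7 1.74 times (log2 fold change -0.80, SE 0.28, edgeR adjusted p = 0.168). Neither passed edgeR, and DESeq2 called Akr1b7 (adjusted p = 0.026). KO was lower on average in 9 of 9 Ren1 parts and 10 of 10 Akr1b7 parts that were long and deep enough to compare. The groups were free of overlap in 0 of these Ren1 parts and 2 of these Akr1b7 parts. Because parts of 1 gene share reads and libraries, these counts are no replication of the gene values. The order of libraries was not that of Acta2 and Myh11: WT1 was high for renin and low for smooth muscle actin and myosin. Akr1b7 lies among close relatives on chromosome 6, and how reads shared between them were counted is not given in the sources used here.

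Fibroblast genes ranged from very abundant to nearly absent, and Postn was the 1 of 6 that passed. Postn encodes periostin, a matrix protein that is low in the healthy adult kidney and rises in injury and fibrosis. It stood at 16.2, 17.4 and 12.4 CPM in WT and at 7.27, 6.71 and 6.01 CPM in KO, and the lowest WT library was well above the highest KO library. Periostin transcripts thus fell to 0.434 of the WT mean (log2 fold change -1.20, SE 0.15, edgeR adjusted p = 0.0226).

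The fall of Postn ran along the gene but differed in size between parts. Of its 39 exonic parts (chromosome 3, 54165031 to 54194961, NCBIM37), 30 had at least 30 bases and 10 counts in 3 libraries. KO was lower on average in all 30, with no overlap of the groups in 26, and the WT to KO ratio had a median of 2.29 (1.19 to 3.04). For Abcc9, 42 of 42 parts were lower on average, 38 of them without overlap. Its ratio had a median of 2.08 and a narrower range (1.68 to 2.59). Parts of 1 gene share reads and libraries, so these counts describe evenness along the gene and are no replication.

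**Figure D4:**
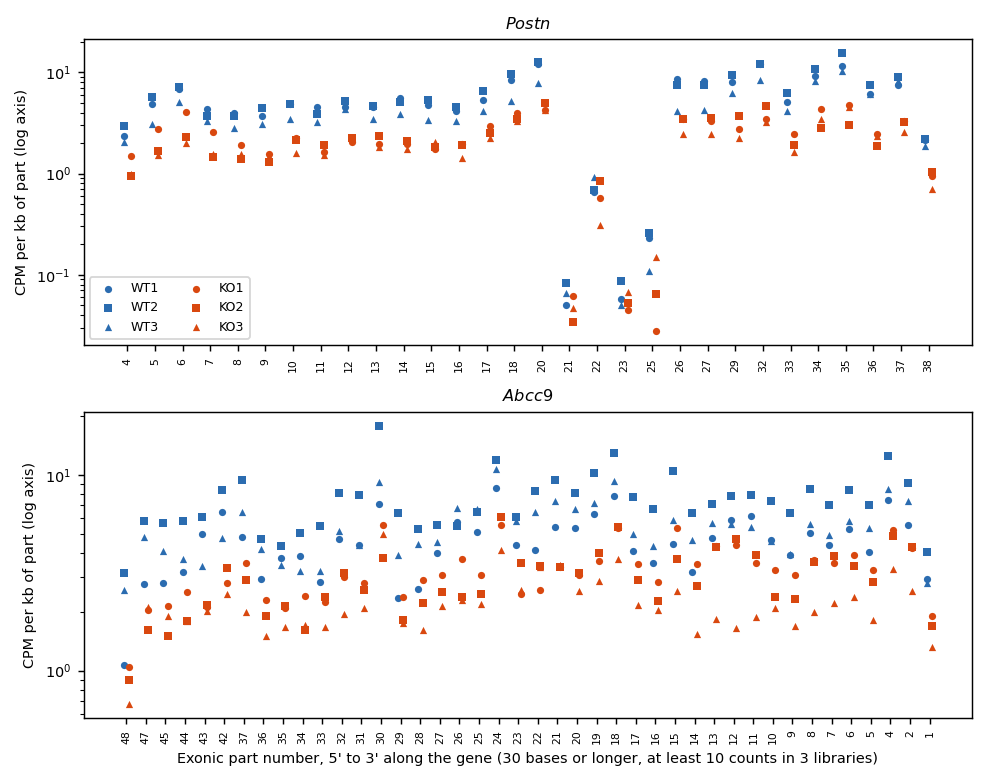
CPM per kilobase (log axis) of the exonic parts of Postn and Abcc9, 5′ to 3′, in the 3 WT (blue) and 3 KO (orange) libraries; parts under 30 bases are left out because a read that touches a short part inflates its density. All KO points lie below all WT points in 26 of 30 parts of Postn and 38 of 42 of Abcc9, and parts 21 to 25 of Postn, an alternative exon and stretches held by few annotated transcripts, are far lower than their neighbours in both genotypes.

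The call for Postn held without WT3 (edgeR adjusted p = 0.0243) and without KO3 (0.0485), and was lost without WT1 (0.0787), WT2 (0.0943), KO1 (0.0639) or KO2 (0.0686), with log2 fold changes from -1.10 to -1.34. It was also lost in the longest exonic part alone (log2 fold change -0.23), a stretch of 2614 bases held by 1 annotated transcript that carried only 0.17 ± 0.0508 CPM in WT.

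Periostin's alternative exons near the C-terminus were used unequally in both genotypes. The coding exons of 81 and 84 bases are shown in capitals between 12 bases of each neighbouring exon (GENCODE transcripts on GRCm38, plus strand, matched by exon structure), because they are the stretches that most transcripts left out.
Postn 81-base exon, chr3:54380412-54380492: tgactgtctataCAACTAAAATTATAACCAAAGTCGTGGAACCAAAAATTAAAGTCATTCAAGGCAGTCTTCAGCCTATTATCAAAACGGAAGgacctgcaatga
Postn 84-base exon, chr3:54385671-54385754: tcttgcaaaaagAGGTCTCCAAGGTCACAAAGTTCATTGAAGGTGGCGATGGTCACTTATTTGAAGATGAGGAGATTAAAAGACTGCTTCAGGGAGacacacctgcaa
The 81-base exon had 10, 10 and 17 counts in WT and 12, 15 and 6 in KO, which per base was 13 ± 7.72% and 17.8 ± 5.75% of the neighbouring shared exons (SD, n = 3 each). For the 84-base exon the counts were 6, 3 and 9 in WT and 12, 5 and 7 in KO, or 4.22 ± 2.38% and 12.8 ± 5.77% of the exons on either side of the 84-base exon. Of those, the upstream exon is itself the 78-base alternative exon described below. The 84-base exon was too scarce for the usage test. A difference in the use of the 81-base exon was not detectable at this depth (diffSpliceDGE, unadjusted p = 0.114). Another alternative exon, of 78 bases, lies between them and reached 100.4 ± 15.0% in WT and 86.5 ± 6.83% in KO, close to its neighbours. These exons were chosen after their values were seen.

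The other fibroblast genes had overlapping groups. Sfrp2, a secreted modulator of Wnt signalling, had the highest level per length of all 35 genes, at 317 ± 22.2 CPM per kilobase in WT (SD, n = 3). It stood at 732, 678 and 637 CPM in WT and at 676, 786 and 840 CPM in KO (log2 fold change 0.17, SE 0.10, edgeR adjusted p = 0.346). Pdgfra, the receptor of interstitial fibroblasts, had a log2 fold change of 0.21 (SE 0.11, edgeR adjusted p = 0.290), and Nt5e, the ecto-5′-nucleotidase CD73, one of 0.07 (SE 0.09).

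Dcn and Lum, the small proteoglycans that mark interstitial fibroblasts, were low. Dcn stood at 4.07 ± 0.982 CPM in WT and 4.58 ± 0.451 CPM in KO (SD, n = 3 each), and Lum had 13, 5 and 30 counts in WT and 17, 25 and 4 in KO. Thus 2 defining fibroblast genes lay near the bottom of the scale in libraries in which Sfrp2 and Nt5e were abundant.

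Exon usage was tested because CD2BP2 belongs to the spliceosome. Of the 32 genes with at least 2 testable parts, only Art3, which encodes an ADP-ribosyltransferase family member of mesangial cells, passed edgeR's diffSpliceDGE with Simes' method (adjusted p = 1.62e-23), against 0.383% of 15145 genes tested. The call came from 1 part. Part 6 (chromosome 5, 92774138 to 92775796, NCBIM37), a stretch of 1659 bases held by 1 transcript, stood at 0.382, 0.267 and 0.215 CPM in WT and 5.38, 2.35 and 1.59 CPM in KO (log2 usage 2.48).

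Of its 1659 bases, that part shares 133 with Cxcl10, a chemokine gene on the opposite strand, and the counts do not separate strands. Reads covered 79.0%, 34.8% and 37.7% of the part in KO1, KO2 and KO3 and 16.9%, 16.9% and 36.6% in WT, so they reached beyond the shared bases in every library. Cxcl10 stood at 5.43, 3.21 and 3.68 CPM in WT and rose to 76.7, 36.1 and 25.3 CPM in KO (log2 fold change 3.49, SE 0.46, edgeR adjusted p = 0.026), in the same order of KO libraries as part 6. Reads of both genes cannot be told apart in the shared bases, and the source of the reads in the rest of the part was not tested. With parts that overlap another gene left out, 0 of the 32 genes passed (0 at an unadjusted p under 0.05), and Art3 had an adjusted p of 1.0. Without part 6 the level of Art3 was 183 ± 24.6 CPM in WT and 164 ± 20.8 CPM in KO (SD, n = 3 each).

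**Figure D5:**
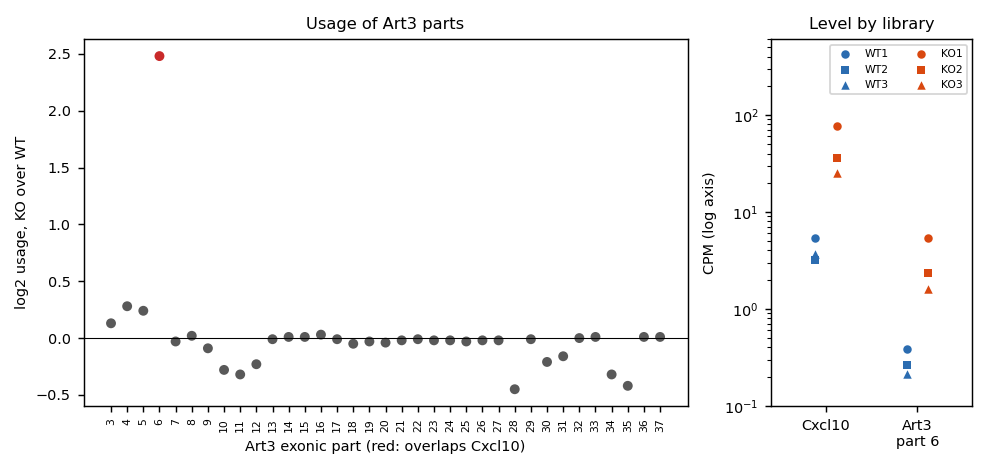
Left, log2 usage of each tested Art3 part in KO over WT; right, CPM (log axis) of Cxcl10 and of Art3 part 6 in each library. Part 6 at 2.48, which overlaps Cxcl10, stands apart from all other parts, and both features are higher in every KO library.

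Isoforms that tell muscle from other cells were read from the parts that only 1 class of transcript holds. In Mylk the parts unique to the long kinase were scarce, with 0.989 ± 0.17% of the per-base density of shared exons in WT and 0.877 ± 0.217% in KO. These percentages are not isoform shares. Part 8, 2174 of the 4686 bases and held by 1 annotated transcript, had fewer reads per base than its neighbours, and several shared exons are short. Between parts of similar length, part 3 of the long form (168 bases) stood at 0.585 ± 0.11 CPM in WT and shared part 27 (154 bases) at 29.7 ± 1.62 CPM. For Cald1, the central exon of the high-molecular-weight form of smooth muscle stood at 7.59 ± 1.71% of shared exons in WT and 6.86 ± 1.26% in KO (n = 3 in each group, SD). It was highest in WT3 (9.57%) and KO3 (8.21%) and lay between 5.72% and 6.64% in the other libraries. No such part of Mylk or Cald1 passed the usage test (diffSpliceDGE, lowest unadjusted p = 0.0306 and 0.188, adjusted p = 1.0). The lowest p of Mylk was that of part 8.

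In Myh11, a 39-base exon near the end of the transcript gives the SM2 tail, and it is shown with the coding bases before the stop codon in capitals (GENCODE transcript on GRCm38, minus strand) as the part that separates the myosin isoforms.
Myh11 39-base exon, chr16:14198050-14198088: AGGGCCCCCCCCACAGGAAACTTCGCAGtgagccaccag
It had 11, 16 and 80 counts in WT and 47, 38 and 22 in KO, so its counts too were highest in WT3. Its density was 45.0 ± 12.2% of the flanking exons in WT and 50.4 ± 14.0% in KO (SD, n = 3 in each group). A difference in its use was not detected (diffSpliceDGE unadjusted p = 0.959). A read that touches a short part inflates its density, so these percentages are not the share of SM2 transcripts. For comparison, a Myh11 part of 28 bases held by both annotated transcripts had 78, 75 and 287 counts in WT.

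Genes of the same pathways, listed beside the 35 and with earlier results known, were tested in the same fit. Of 92 tested, 6 fell (1.76% of all genes) and 1 rose (1.62% of all genes), with a median log2 fold change of -0.07. No PDGF ligand passed edgeR's test (0 of 4, with 0 by DESeq2 and 1 at an unadjusted p under 0.05): the log2 fold changes of Pdgfa, Pdgfc and Pdgfd were 0.21, -0.11 and -0.03 (edgeR adjusted p = 0.202, 0.75 and 0.889). Pdgfb, the ligand that recruits mesangial cells, was chosen after its values were seen and stood at 115 ± 36.8 CPM in WT and 116 ± 8.37 CPM in KO. Among 25 genes of serum response factor, its myocardin family cofactors and the contractile apparatus 0 passed in edgeR (4 by DESeq2 and 6 at an unadjusted p under 0.05). The smallest p there were those of Ppp1r12b, Ppp1r12a and Ppp1r14a, subunits or inhibitors of myosin phosphatase, with log2 fold changes of -0.23, -0.25 and 0.92 (edgeR adjusted p = 0.0943, 0.131 and 0.135).

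Of 14 genes of the renin-angiotensin and endothelin systems and of renin gene regulation, 3 fell: Crebbp and Ep300, the histone acetyltransferases required in renin cells, and Nr2f2, a nuclear receptor. Crebbp stood at 89.8, 86.0 and 82.3 CPM in WT and 62.8, 53.9 and 68.1 CPM in KO (log2 fold change -0.48, SE 0.09, edgeR adjusted p = 0.0476). Ep300, counted with Gm23880 under 1 identifier, had a log2 fold change of -0.25 (adjusted p = 0.0487) and Nr2f2 one of -0.29 (0.0466), all in edgeR.

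Of 22 other mural and mesangial genes, 3 fell. They were Foxc1, a forkhead factor of podocytes and mesangium (log2 fold change -0.37, edgeR adjusted p = 0.0295), Pde3a, a cyclic nucleotide phosphodiesterase (-0.41, 0.0479), and Ndufa4l2, a mitochondrial protein enriched in pericytes (-0.32, 0.0485). Of 27 other fibroblast genes only Meox1, a homeobox factor, passed: it rose from 10.6, 13.5 and 13.7 CPM in WT to 19.3, 19.7 and 18.8 CPM in KO (log2 fold change 0.61, SE 0.11, edgeR adjusted p = 0.0447). The next smallest p in that list were those of Tcf4 (-0.28, adjusted p = 0.0964) and Mfap5 (-1.60, 0.115). The 7 calls had adjusted p from 0.0295 to 0.0487 in edgeR. All 7 were lost without WT1, WT2, KO1 or KO2 and with the replicate block, Foxc1 alone was kept without WT3, and Crebbp and Pde3a alone were kept without KO3.

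The markers of other cells, too, were read beside these genes (3.37% of all genes passed in edgeR and 14.0% in DESeq2). Podocyte markers summed to 24302 ± 1533 CPM in WT and 20911 ± 1008 CPM in KO (1 of 12 fell, Nphs1, and 5 by DESeq2), and endothelial markers to 8418 ± 334 and 7679 ± 230.4 CPM (0 of 12 passed in edgeR, 3 by DESeq2 and 3 at an unadjusted p under 0.05). Macrophage markers ranged from 87.0 to 116 CPM in WT and 172 to 187 CPM in KO (3 of 10 rose, 5 by DESeq2), proximal tubule markers from 479 to 982 and 826 to 1240 CPM (2 of 10 rose, 4 by DESeq2), distal markers from 212 to 381 and 301 to 1538 CPM (1 of 10 rose, 4 by DESeq2) and parietal markers from 76.9 to 98.3 and 122 to 165 CPM (1 of 7 rose, 4 by DESeq2). The most abundant markers were Kdr, Ehd3 and Emcn (endothelial), Lyz2, Csf1r and Tyrobp (macrophage), Kap, Slc34a1 and Lrp2 (proximal tubule), Umod, Slc12a3 and Slc12a1 (distal) and Cldn1, Pax8 and Cldn2 (parietal). The distal sum of KO3 lay inside the WT range. No marker was at 0 in any library. The part of these markers in the values of Postn, Abcc9 and the 7 pathway genes was not tested.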

How the data were processed

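Polyadenylated RNA of 3 KO and 3 WT libraries was read from one deposited table per library. Per the file headers, the authors used Ensembl 67 gene models on the mouse build NCBIM37, split into 368092 exonic parts. Each deposited table gives a raw read count per part, the bases covered, the part length and the covered fraction, which the authors computed as covered bases over length. TopHat 1.4.1 appears in the submitters' processing notes, as does GRCh37, which is human and not the build of the file headers. How reads were counted, and on which strand, is not given in the sources used here. Counts were treated as unstranded, because 60 of 61 opposite-strand pairs of parts with a shared length of 90% or more differed by no more than 10%.

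Gene counts were sums over parts, so a read across several parts can enter more than once. Symbols were matched by identifier (31300 of 35981 single identifiers). The gene test used edgeR 4.0.16 under R 4.3.3 (TMM, filterByExpr, quasi-likelihood test, Benjamini-Hochberg adjustment, adjusted p under 0.05), and exon usage with diffSpliceDGE. The median SE of a log2 fold change was 0.13. Replicate libraries differed by more than counting noise (chi-square per gene 71.2 to 206). The tests were tested on simulated counts. Alternatives were RLE factors, no filter, DESeq2 1.42.0, a replicate block, parts that overlap no other gene, the longest part, each library left out and, for exons, limma 3.58.1 voom and a minimum of 10 counts in 3 libraries. The highest-count part and, for exons, parts that overlap no other gene were added after seeing the data. The 35 genes and all lists were chosen with earlier results of these data known. Named were all 35 genes, Cd2bp2, pathway genes that passed (or up to 3 with the smallest p), the 3 most abundant markers of each cell type (1 of them is not reported here), and muscle isoform parts of Cald1, Mylk and Myh11.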

Additional observations from a re-analysis of the deposited data

How the results depend on the processing

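Of 451 alternative values for the 35 genes, 407 kept their direction and their side of the threshold. Calls among all genes went from 666 to 2766 with DESeq2, 424 with the longest exonic part, 82 with the replicate block and 31 (without WT2) to 254 (without WT3) with 1 library left out (39 without WT1, 75 without KO1, 109 without KO2 and 251 without KO3). Of the 35 genes, 1 was called; DESeq2 called 6, the highest-count part, added after seeing the data, 2, and leaving out 1 library 0 to 1. Cd2bp2 was not called with the replicate block (-0.324, edgeR adjusted p = 0.0893) or the longest part (-0.267, 0.0546), and ranged from -0.36 to -0.309 with 1 library left out, past the threshold only without KO3. Exon usage called 1 of the 35 genes, and 0 with parts that overlap no other gene, also added after seeing the data. The labels name no pairing of libraries. Deviations of same-numbered libraries correlated at 0.107, -0.0601 and 0.158, and those of the other pairs at -0.203 to 0.107. WT3 with KO3 was the highest pair, WT1 correlated equally with KO1 and KO2 (0.107), and WT2 correlated best with KO1 (0.0593). Whether same-numbered libraries share a batch or litter was not tested.

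Log2 fold changes turned sign in the longest part for Pdgfrb (0.018), Serpine2 (-0.354), Mylk (-0.274), Myl9 (-0.009), Pdgfd (0.022) and Art3, whose longest part is the one that overlaps Cxcl10 (3.454, edgeR adjusted p = 0.026). They turned with the replicate block for Acta2 (0.07) and Myh11 (0.014), and in the highest-count part for Pdgfd (0.002). With 1 library left out the ranges crossed 0 for Pdgfrb (-0.063 to 0.025), Itga8 (-0.035 to 0.155), Agtr1a (-0.028 to 0.049), Acta2 (-0.27 to 0.447), Myh11 (-0.573 to 0.592), Cnn1 (-1.742 to 0.961), Mylk (-0.014 to 0.064), Myl9 (-0.074 to 0.148), Actg2 (-0.221 to 1.291), Rgs5 (-0.553 to 0.685), Mcam (-0.088 to 0.044), Heyl (-0.004 to 0.155), Lum (-0.908 to 0.40), Nt5e (-0.012 to 0.143), Pdgfc (-0.217 to 0.09) and Pdgfd (-0.098 to 0.049). The cause of these turns was not tested. Depth limits Actg2, Lum, Tbx18 and, outside WT3, Cnn1, which have few counts.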
